A study of Mus musculus with 6 samples.

Results

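The genes described here are 10 members of the hypoxia-inducible factor (HIF) pathway in mouse liver, matched by symbol among the 22599 genes of the deposited tables, and all 10 were found. They are the factor subunits Hif1a and Epas1, the oxygen-sensing prolyl hydroxylases Egln1 and Egln3, and the target genes Bnip3, Vegfa, Slc2a1, Pfkfb3, Ndrg1 and Ankrd37. RNA from whole liver was sequenced in 6 libraries. The flox group (n = 3, genotype label WT) came from mice with floxed NcoR1 alleles (NcoR1fl/fl), and the other group (n = 3, genotype label knockdown NcoR1) from mice named NcoR1ΔHep, in which the name places the loss of this nuclear receptor corepressor in hepatocytes. All 6 sample titles give the time as 0 h, and all 6 carry liver ischemia-reperfusion as their treatment, so whether these livers had surgery is unknown. Age, the Cre driver and whether each library came from its own mouse were not given in the sources used here. The p-values therefore measure the spread between libraries only, which may be technical.

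HIF is a heterodimer of an oxygen-regulated alpha subunit, encoded by Hif1a or Epas1 (also called HIF-2 alpha), and the stable partner ARNT. In the presence of oxygen, prolyl hydroxylases encoded by Egln genes modify the alpha subunit, the von Hippel-Lindau protein binds it, and the proteasome degrades it, so much of the regulation acts on protein rather than on the Hif1a transcript. When oxygen falls the factor binds a short core in target genes, which shift cells toward glucose uptake, glycolysis, mitophagy and vessel growth. In liver, oxygen declines from the portal to the central vein, and ischemia followed by reperfusion is a classical setting of HIF activity.

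The sequences just upstream of 4 targets are shown because the core of the HIF binding element can be read in them, in 3 targets that hold it and in Vegfa, whose first window does not. They come from RefSeq promoter windows of build GRCm38.p6, which run from 250 bases before to 50 bases after a gene start. Windows were found for 8 of the 10 genes (10 windows, since Pfkfb3 and Vegfa have 2 each), and Epas1 and Ndrg1 had no entry. The core was searched as ACGTG and GCGTG on both strands (read as CACGT and CACGC on the other strand). Capitals mark the core, and each stretch was limited to bases outside exons of the GENCODE M21 annotation. The coordinates are chr7:138909520-138909756 (minus strand) for Bnip3, chr8:45999868-46000100 (minus strand) for Ankrd37, chr2:11502102-11502340 (minus strand) for the second window of Pfkfb3 and chr17:46032378-46032627 (minus strand) for the first window of Vegfa.
Bnip3: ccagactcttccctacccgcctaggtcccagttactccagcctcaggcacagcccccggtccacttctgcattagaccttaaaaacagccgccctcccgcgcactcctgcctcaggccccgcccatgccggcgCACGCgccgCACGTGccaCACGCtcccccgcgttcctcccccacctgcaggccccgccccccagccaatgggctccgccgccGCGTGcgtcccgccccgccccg
Ankrd37: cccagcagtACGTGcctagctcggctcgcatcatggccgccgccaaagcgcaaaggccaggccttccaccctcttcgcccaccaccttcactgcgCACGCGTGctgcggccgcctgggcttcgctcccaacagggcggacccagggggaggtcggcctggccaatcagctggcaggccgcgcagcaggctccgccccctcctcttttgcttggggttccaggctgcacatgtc
Pfkfb3: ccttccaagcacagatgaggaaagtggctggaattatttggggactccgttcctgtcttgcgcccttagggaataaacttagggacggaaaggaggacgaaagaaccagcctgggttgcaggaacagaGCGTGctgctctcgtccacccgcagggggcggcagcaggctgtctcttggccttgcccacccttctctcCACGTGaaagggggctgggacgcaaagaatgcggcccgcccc
Vegfa: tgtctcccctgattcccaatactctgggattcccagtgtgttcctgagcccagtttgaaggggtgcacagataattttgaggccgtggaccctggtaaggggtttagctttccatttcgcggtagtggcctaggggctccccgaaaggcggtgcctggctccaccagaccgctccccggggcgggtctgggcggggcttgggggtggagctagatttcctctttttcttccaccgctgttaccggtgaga

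Bnip3 held 5 core matches in the printed stretch, a pair of them being the 2 strands of a single CACGTG, the palindrome that basic helix-loop-helix factors such as the clock and MYC proteins also bind. Ankrd37 held 3, of which a pair overlapped in 1 CACGCGTG. Pfkfb3 held 3, of which a pair was again 1 CACGTG. The first Vegfa window held 0. Its second window held 2, both outside its longest upstream stretch free of annotated exons. In the whole windows, exons included, 9 of the 10 windows and all 8 genes with a window had at least 1 core. Vegfa counts there through its second window only. Among the 32851 promoter windows of the genome table, 43.8% held ACGTG or GCGTG on either strand, 19.6% held ACGTG, 32.4% held GCGTG and 7.15% held CACGTG. These are letter matches and not measured binding, and a window without the core says nothing about elements farther away.

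The libraries held 36975231 to 38470468 counts each. In each, 8 hepatocyte markers summed to 54101 to 60700 FPKM (counts scaled by gene length and by the library's total). Of these markers, 3 had a log2 fold change above 0 and 5 below (median -0.11). Gene by gene, their log2 CPM deviated from the mean of the 6 libraries by an average of -0.29 in NcoR1ΔHep 1 to 0.13 in flox 2. Ncor1 itself was at 4.93 to 6.63 FPKM in NcoR1ΔHep and 6.70 to 7.72 FPKM in flox. Its log2 fold change was -0.31 (SE 0.21, edgeR adjusted p = 0.931), so the genotypes rest on the labels. Library NcoR1ΔHep 1 stood apart. It alone had Xist, the RNA of the inactive X chromosome (17138 counts against 6 to 18), and nearly lacked the Y-linked Ddx3y (12 counts against at least 2008), while the labels give no sex. Fold changes given below for the 10 genes and for further pathway genes are therefore also given without it. Libraries also resembled each other across the genotypes. Pearson correlations of log2 CPM across all tested genes, which are not independent replicates, ran from 0.942 to 0.983 within a genotype. The highest of all were 0.992 between flox 3 and NcoR1ΔHep 2 and 0.988 between flox 2 and NcoR1ΔHep 3.

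Levels of the 10 genes are comparable with each other in FPKM. Bnip3 was the most abundant, at 117 ± 31.2 FPKM (SD over all 6 libraries), followed by Epas1 at 23.6 ± 2.62 and Vegfa at 19.5 ± 11.9. Hif1a followed at 9.27 ± 2.80 FPKM, Ndrg1 at 6.47 ± 5.90, Egln1 at 5.29 ± 0.266 and Egln3 at 4.19 ± 1.11. Pfkfb3 at 2.67 ± 2.52, Slc2a1 at 2.60 ± 0.415 and Ankrd37 at 0.383 ± 0.320 FPKM were the lowest. The range of Bnip3 lay above that of Epas1 without overlap, and the range of Slc2a1 above that of Ankrd37. All other neighbours in this order overlapped in range, so that Epas1 exceeded Vegfa in 5 of 6 libraries and Ndrg1 exceeded Egln1 in 2 of 6.

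**Figure D1:**
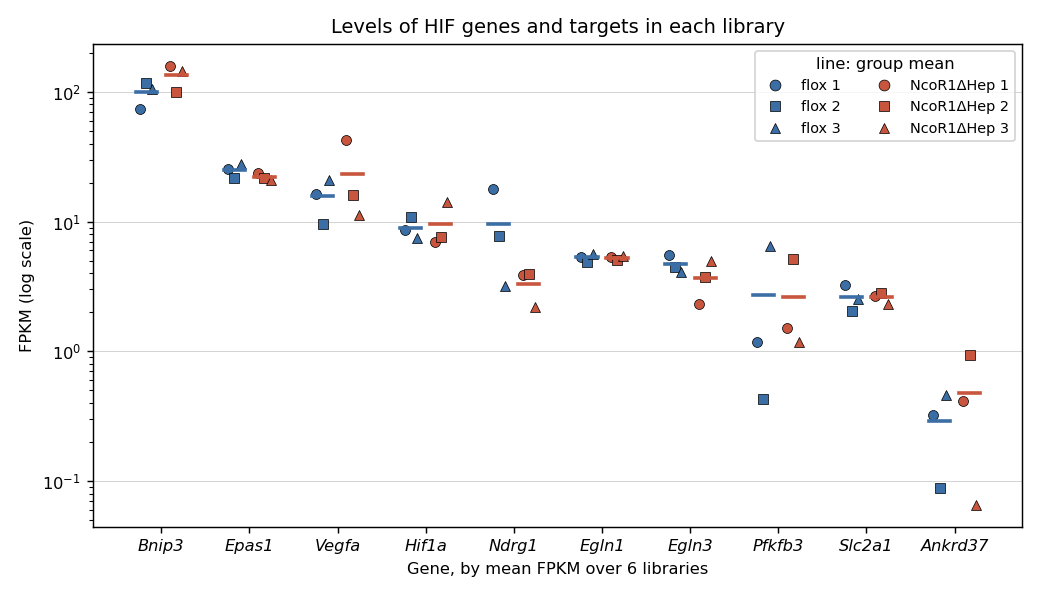
Level of each gene in each library in FPKM, on a log axis, with flox in blue and NcoR1ΔHep in red. Symbols give the library number and horizontal lines the mean of 3 libraries. Epas1, Egln1 and Slc2a1 lie close together in the 6 libraries, while Pfkfb3 and Ankrd37 spread over more than a factor of 10, from 0.429 to 6.50 and from 0.0655 to 0.944 FPKM.

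The question put to these genes was whether libraries labelled NcoR1 knockdown differ in them from libraries labelled flox at 0 h. None of the 10 passed edgeR's quasi-likelihood test with Benjamini-Hochberg adjustment over 13205 tested genes (smallest adjusted p = 0.931), where 0.0% of all tested genes were called. DESeq2 called 0 of the 10 as well and 5 genes in all (0.0246% of 20289). At an unadjusted p under 0.05 there was 1 of the 10, Ndrg1, against 3.35% of tested genes (1.92% lower and 1.43% higher in NcoR1ΔHep). The groups overlapped in all 10 genes, while 7.56% of all tested genes showed no overlap in FPKM (4.95% lower and 2.61% higher in NcoR1ΔHep). The median log2 fold change of the 10 was 0.03, as it was over all tested genes (0.03), and 6 were above and 4 below 0 against 53.5% above among all genes.

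**Figure D2:**
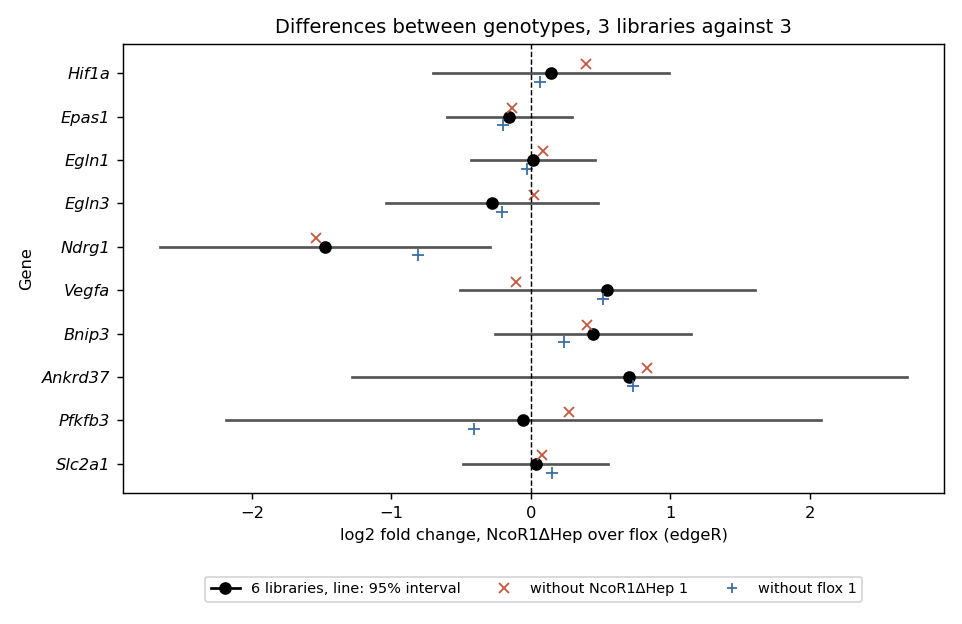
Log2 fold change of NcoR1ΔHep over flox for each gene by edgeR, with its 95% interval (dot and line, 3 libraries against 3) and the estimate without NcoR1ΔHep 1 (cross) or flox 1 (plus). Only the interval of Ndrg1 (-2.66 to -0.30) leaves out 0 before adjustment, and its estimate is -0.81 without flox 1. The crosses of Vegfa and Egln3 lie near 0.

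Among the factors, Hif1a, whose product drives the acute hypoxic response, had 8.57, 10.9 and 7.46 FPKM in flox libraries 1, 2 and 3. In NcoR1ΔHep 1, 2 and 3 it was at 6.94, 7.58 and 14.2 FPKM. The highest library was NcoR1ΔHep 3 and the next was flox 2, so both genotypes held high and low libraries. By edgeR the estimated log2 difference was 0.14 (95% interval -0.70 to 0.99, SE 0.37, adjusted p = 0.973), and it was 0.39 without NcoR1ΔHep 1 and -0.37 without NcoR1ΔHep 3. Of 8594 other genes with a mean of at least 5 CPM, those closest to Hif1a over the 6 libraries were Kpna3, an importin of nuclear transport (Pearson r = 0.997 of log2 CPM), Ankib1 (r = 0.996) and Ythdf2, a reader of methylated RNA (r = 0.996). With 6 points and so many genes such values are a description only. Kpna3 was likewise highest in NcoR1ΔHep 3 (16.0 FPKM) and flox 2 (12.7 FPKM) while the remaining 4 lay between 7.44 and 9.88 FPKM.

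Epas1, the alpha subunit enriched in endothelium and also active in hepatocyte lipid and iron handling, was among the steadiest of the 10. It was at 25.4, 21.9 and 27.7 FPKM in flox and at 23.9, 21.6 and 20.9 FPKM in NcoR1ΔHep, with the 2 highest values in flox 3 and flox 1. For Epas1 the log2 fold change was -0.15 (95% interval -0.60 to 0.29, SE 0.19, adjusted p = 0.940), and -0.14 without NcoR1ΔHep 1. On the linear scale that interval ran from 0.659 to 1.23 times the flox level. Its spread within a genotype, 0.124 on the log2 CPM scale, was smaller than that of all but 6.32% of tested genes. Endothelial cells are a known site of Epas1 expression, and the 16 sinusoidal endothelial markers summed to 241, 91.0 and 139 FPKM in flox and 157, 86.6 and 62.7 FPKM in NcoR1ΔHep. That sum spanned a wider range than Epas1, and the library highest for the markers, flox 1, was second for Epas1. In whole liver, fewer cells of a type and less RNA per cell cannot be told apart. The genes closest to Epas1 in pattern were the unnamed transcript 4732465J04Rik (r = 0.968), the ETS factor Elf2 (r = 0.959) and the NAD-synthesis enzyme gene Nmnat1 (r = 0.954).

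The balance between the alpha subunits was taken as the FPKM ratio of Hif1a to Epas1. It was 0.338, 0.497 and 0.269 in flox and 0.290, 0.351 and 0.679 in NcoR1ΔHep, so Epas1 transcripts exceeded Hif1a transcripts per length in each of the 6 libraries. The mean was 0.368 ± 0.117 in flox and 0.440 ± 0.209 in NcoR1ΔHep (SD, n = 3 each). Permuting the genotypes over the log2 ratios in an exact two-sided test (n = 3 each) gave p = 0.6, where 0.1 is the smallest value this design can reach. The log2 difference of 0.20 became -0.16 without NcoR1ΔHep 3.

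Of the oxygen sensors, Egln1, which encodes the main HIF hydroxylase PHD2, varied least. It was at 5.38, 4.90 and 5.66 FPKM in flox and 5.30, 5.10 and 5.43 FPKM in NcoR1ΔHep, a span of 1.15 times from the lowest to the highest library. Egln1 had an estimated log2 difference of 0.02 (95% interval -0.43 to 0.46, SE 0.19, adjusted p = 0.992) and 0.09 without NcoR1ΔHep 1. The linear interval ran from 0.743 to 1.38 times the flox level.

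Egln3, the hydroxylase PHD3 and itself a HIF-induced gene, was at 5.51, 4.46 and 4.06 FPKM in flox. In NcoR1ΔHep it was at 2.33, 3.75 and 5.01 FPKM, with the lowest value of all in NcoR1ΔHep 1 and the second highest in NcoR1ΔHep 3. The log2 fold change of -0.28 (95% interval -1.04 to 0.48, SE 0.33, adjusted p = 0.936) was 0.02 without NcoR1ΔHep 1. The FPKM ratio of Egln1 to Egln3 was 2.28 in NcoR1ΔHep 1 and 0.977 to 1.39 in the other 5 libraries. Egln2, the third hydroxylase, was at 11.1 to 15.5 FPKM, more than Egln1 in each library by 2.16 to 2.93 times. Its log2 fold change was -0.02 (SE 0.20, adjusted p = 0.992), and 0.04 without NcoR1ΔHep 1.

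Among the targets, Bnip3 encodes a mitochondrial outer membrane protein that recruits the mitophagy machinery. It was at 74.2, 118 and 105 FPKM in flox and at 159, 99.7 and 146 FPKM in NcoR1ΔHep. NcoR1ΔHep 1 and NcoR1ΔHep 3 were the highest libraries, while NcoR1ΔHep 2 lay below flox 2 and flox 3. Its log2 fold change was 0.45 (95% interval -0.26 to 1.15, SE 0.31, adjusted p = 0.931), and 0.40 without NcoR1ΔHep 1 and 0.24 without flox 1. Its paralog Bnip3l, which serves the same process, was at 16.1 to 19.9 FPKM with a log2 fold change of -0.09 (SE 0.22, adjusted p = 0.973), which was 0.02 without NcoR1ΔHep 1.

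Vegfa, the growth factor for endothelial cells, was at 16.4, 9.62 and 21.1 FPKM in flox. It was at 42.4, 16.1 and 11.3 FPKM in NcoR1ΔHep. NcoR1ΔHep 1 stood far above the next highest library, flox 3, and the other NcoR1ΔHep libraries lay within the flox range. Over all 6 libraries the log2 fold change was 0.55 (95% interval -0.51 to 1.61, SE 0.46, adjusted p = 0.931) and it was -0.11 without NcoR1ΔHep 1, so its direction rested on that library. Of the genes for related ligands, Vegfb was at 5.09, 3.12 and 6.33 FPKM in flox and 9.93, 7.71 and 4.26 FPKM in NcoR1ΔHep (log2 fold change 0.59, SE 0.34, adjusted p = 0.931), again highest in NcoR1ΔHep 1. Without that library it was 0.39, and without flox 2 it was 0.38.

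Slc2a1, the glucose transporter GLUT1, was at 3.23, 2.04 and 2.54 FPKM in flox and at 2.68, 2.83 and 2.31 FPKM in NcoR1ΔHep. Every NcoR1ΔHep value lay inside the flox range. Slc2a1 had an estimated log2 difference of 0.03 (95% interval -0.49 to 0.55, SE 0.23, adjusted p = 0.989) and 0.08 without NcoR1ΔHep 1, and the linear interval ran from 0.714 to 1.47 times the flox level.

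Pfkfb3, which makes the allosteric activator of phosphofructokinase, had the widest spread of the 10. It was at 1.19, 0.429 and 6.50 FPKM in flox and 1.52, 5.18 and 1.18 FPKM in NcoR1ΔHep. Flox 3 and NcoR1ΔHep 2 were the high libraries, 1 from each genotype, and the other 4 stayed at or below 1.52 FPKM. Its spread within a genotype (1.46 on the log2 CPM scale) exceeded that of 99.4% of tested genes, and the median over all tested genes was 0.297. Its estimated log2 difference was -0.05 (95% interval -2.19 to 2.08, SE 0.93, adjusted p = 0.993), 0.27 without NcoR1ΔHep 1 and 1.77 without flox 3. The acute-phase gene Saa1 (picked with its values in view) was high in the same libraries, with 2427 FPKM in flox 3 and 2092 FPKM in NcoR1ΔHep 2 against 20.7 to 129 FPKM elsewhere. Neutrophil markers, of which 3 of 7 passed the count filter, summed to 22.5 and 11.9 FPKM there and to 3.46 to 7.61 FPKM elsewhere. The part of either in the Pfkfb3 values was not tested.

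Ankrd37, an ankyrin-repeat gene with strong HIF induction, was the scarcest. It was at 0.322, 0.0890 and 0.463 FPKM in flox and 0.418, 0.944 and 0.0655 FPKM in NcoR1ΔHep. These values rest on 25, 7 and 35 counts in flox and 32, 72 and 5 counts in NcoR1ΔHep. As for Pfkfb3, NcoR1ΔHep 2 and flox 3 were its highest libraries, while flox 2 and NcoR1ΔHep 3 were its lowest. The log2 fold change of 0.71 (95% interval -1.29 to 2.70, SE 0.87, adjusted p = 0.938) was 0.84 without NcoR1ΔHep 1 and -0.29 without NcoR1ΔHep 2.

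Ndrg1, a stress-responsive gene of the N-myc downstream-regulated family, had the largest difference of the 10. It was at 17.9, 7.78 and 3.19 FPKM in flox and at 3.87, 3.94 and 2.19 FPKM in NcoR1ΔHep. Flox 1 and flox 2 were the high libraries, and flox 3 lay below NcoR1ΔHep 1 and NcoR1ΔHep 2, so the groups overlapped. For Ndrg1 the log2 fold change was -1.48 (95% interval -2.66 to -0.30, SE 0.51, unadjusted p = 0.0204, adjusted p = 0.931 by edgeR), where 1.92% of tested genes were lower in NcoR1ΔHep at an unadjusted p under 0.05. It was -1.54 without NcoR1ΔHep 1 and -0.81 without flox 1. Of its family, 2 other members passed the count filter, Ndrg2 at 273 to 402 FPKM (log2 fold change 0.07, SE 0.24) and Ndrg3 at 2.61 to 3.98 FPKM (-0.14, SE 0.24). Without NcoR1ΔHep 1 they were at -0.03 and 0.03.

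The genes closest to Ndrg1 over the 6 libraries were Ccng2, an atypical cyclin (r = 0.982), the kinase gene Map4k4 (r = 0.982) and Kctd20 (r = 0.975). Ccng2 was at 13.0, 9.12 and 4.42 FPKM in flox and 5.23, 5.36 and 3.18 FPKM in NcoR1ΔHep. The clock output gene Dbp separated the same libraries in the opposite direction, since flox 1 (0.948 FPKM) and flox 2 (3.76 FPKM) were low and the remaining 4 lay between 37.6 and 92.6 FPKM. Cdkn1a, the cell-cycle inhibitor p21, was also highest in flox 1 (7.61 FPKM) and flox 2 (4.46 FPKM). Flox 3 (2.15 FPKM) was above each NcoR1ΔHep library (0.908 to 1.37 FPKM) as well. Of all tested genes, 4.95% were likewise lower in NcoR1ΔHep without overlap, and Cdkn1a was picked with its values in view. Its log2 fold change was -2.08, which was -1.95 without NcoR1ΔHep 1 and -1.67 without flox 1. Cdkn1a is 1 of the 5 genes called by DESeq2 (adjusted p = 0.0226), with an adjusted p = 0.931 by edgeR. Endothelial markers were highest in flox 1 as well (241 FPKM in sum), but flox 2 (91.0 FPKM) lay below flox 3 (139 FPKM). The part of any of these in the Ndrg1 values was not tested.

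**Figure D3:**
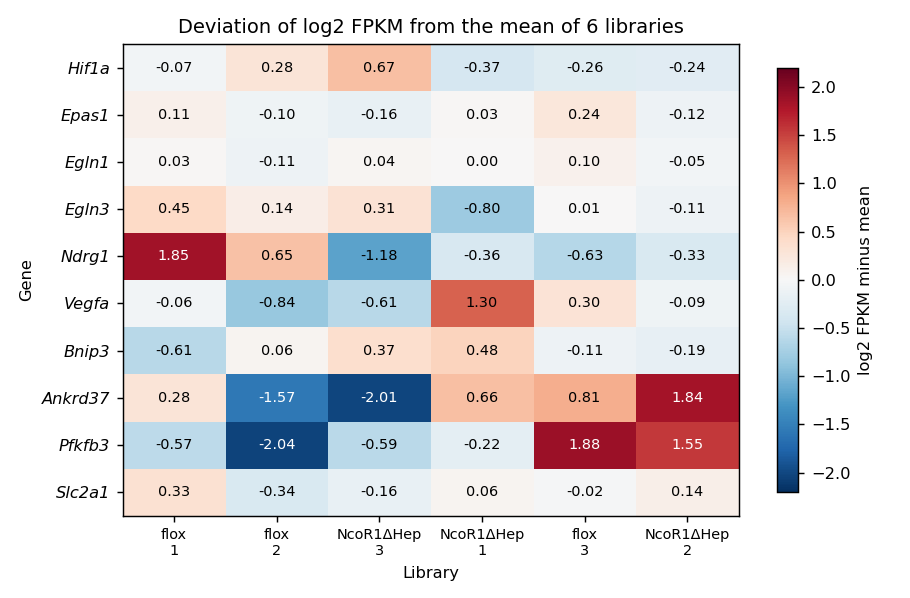
Deviation of log2 FPKM from the mean of the 6 libraries for each gene, with libraries ordered to set alike ones side by side and not by genotype. Ndrg1 is highest in flox 1 (1.85), Vegfa in NcoR1ΔHep 1 (1.30), and Pfkfb3 in flox 3 (1.88) and NcoR1ΔHep 2 (1.55), while Epas1 and Egln1 stay within 0.25 of their means.

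Targets of the same pathway did not all peak in the same library. Ndrg1, Slc2a1 and the HIF-induced Egln3 were highest in flox 1. Vegfa and Bnip3 were highest in NcoR1ΔHep 1, Pfkfb3 in flox 3 and Ankrd37 in NcoR1ΔHep 2. Hif1a was highest in NcoR1ΔHep 3, where Ndrg1 and Ankrd37 were at their lowest. Averaged over the 10 genes, the deviation on the log2 CPM scale ran from -0.17 in flox 2 to 0.18 in flox 3. In NcoR1ΔHep it was -0.06, 0.11 and -0.05. The spread within a genotype had a median of 0.492 over the 10 genes against 0.297 over all tested genes. It stood at percentile 6.32 for Epas1, 8.17 for Egln1 and 8.85 for Slc2a1 among tested genes, and at 96.8 for Ndrg1 and 99.4 for Pfkfb3.

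Of the wider pathway, 105 further genes were in the tables and 95 passed the count filter. None passed the adjusted threshold, 40 had a log2 fold change above 0 and 55 below, and the median was -0.09 against 0.03 over all tested genes, of which 46.5% were below 0. At an unadjusted p under 0.05 there were 4, namely Insig2, Kdr and Rptor lower and Plod2 higher in NcoR1ΔHep, against 3.35% of all tested genes. The groups did not overlap in 6 of the 95 (6.32%, against 7.56%).

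Among other subunits, sensors and degradation genes, 6 of 12 were above and 6 below 0 (median 0.04). The groups did not overlap in 1 of the 12, Vhl (8.33%, against 7.56% of all tested genes). It was at 3.16, 2.77 and 2.51 FPKM in flox and 2.09, 2.02 and 2.47 FPKM in NcoR1ΔHep. Its log2 fold change was -0.32 (SE 0.24, edgeR adjusted p = 0.931), and -0.22 without NcoR1ΔHep 1. Arnt, the partner of both alpha subunits, was at 9.02, 6.01 and 5.35 FPKM in flox and 5.41, 5.02 and 3.77 FPKM in NcoR1ΔHep (log2 fold change -0.49, SE 0.22, adjusted p = 0.931). NcoR1ΔHep 1 lay just above flox 3. Hif1an, the asparaginyl hydroxylase that blocks coactivator binding, was at 3.67, 2.94 and 2.51 FPKM in flox and 1.76, 2.59 and 1.90 FPKM in NcoR1ΔHep (-0.51, SE 0.23, adjusted p = 0.931). Both were highest in flox 1. Without NcoR1ΔHep 1 the estimates were -0.53 for Arnt and -0.35 for Hif1an, and Arnt was at -0.32 without flox 1.

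HIF cofactors and other regulators had 8 of 14 above 0 and a median of 0.04. The groups did not overlap in 3 of the 14 (21.4%, against 7.56% of all tested genes). These were Rptor and Hspa9, lower in NcoR1ΔHep, and Crebbp, higher. Rptor, the mTOR complex scaffold, was at 3.64, 2.62 and 2.83 FPKM in flox and 2.04, 2.36 and 1.80 FPKM in NcoR1ΔHep (log2 fold change -0.52, SE 0.19, adjusted p = 0.931). Crebbp, a histone acetyltransferase that HIF recruits, was at 1.33, 1.20 and 1.33 FPKM in flox and 2.09, 1.42 and 1.35 FPKM in NcoR1ΔHep (0.34, SE 0.21, adjusted p = 0.931). Hspa9 had a log2 fold change of -0.43 (SE 0.27, edgeR adjusted p = 0.931). Without NcoR1ΔHep 1 the estimates were -0.45 for Rptor, 0.20 for Crebbp and -0.19 for Hspa9.

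Glucose uptake and glycolysis targets had 15 of 23 below 0, with a median of -0.25 that was -0.11 without NcoR1ΔHep 1, and no member had an unadjusted p under 0.05. Their mean level was lowest in NcoR1ΔHep 1, at a mean deviation of -0.29 on the log2 CPM scale, against -0.12 to 0.15 elsewhere. Ldha, a lactate dehydrogenase subunit picked with its values in view, had 160, 130 and 133 FPKM in flox and 60.7, 115 and 120 FPKM in NcoR1ΔHep. Its log2 fold change was -0.46 (SE 0.33, edgeR adjusted p = 0.931), and -0.16 without NcoR1ΔHep 1. Hk1, a hexokinase, was at 0.810, 0.308 and 0.556 FPKM in flox and 0.386, 0.392 and 0.169 FPKM in NcoR1ΔHep (-0.79, SE 0.43, adjusted p = 0.931). Ppp1r3c, a glycogen-targeting phosphatase subunit, was at 17.8, 20.1 and 5.15 FPKM in flox and 4.08, 1.85 and 11.7 FPKM in NcoR1ΔHep (-1.20, SE 0.73, adjusted p = 0.931), highest in flox 2 and flox 1. Without NcoR1ΔHep 1 the estimates were -0.90 for Hk1 and -0.93 for Ppp1r3c. Hk1 was at -0.51 without flox 1. Ppp1r3c was at -0.78 without flox 2, -0.77 without NcoR1ΔHep 2 and -2.34 without NcoR1ΔHep 3.

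Mitophagy, stress and metabolism targets had 11 of 27 above 0 and a median of -0.02. Insig2, which retains the sterol sensor in the endoplasmic reticulum, was at 71.6, 57.0 and 21.6 FPKM in flox and 10.4, 19.6 and 30.2 FPKM in NcoR1ΔHep (log2 fold change -1.24, SE 0.53, unadjusted p = 0.0460, adjusted p = 0.931 by edgeR). As for Ndrg1, flox 1 and flox 2 were the high libraries. Plod2, a collagen lysyl hydroxylase, was higher in each NcoR1ΔHep library (0.0932, 0.156 and 0.0539 FPKM against 0.0358 to 0.0418 in flox), on 13 to 55 counts. Its log2 fold change was 1.36 (SE 0.50, edgeR adjusted p = 0.931). Without NcoR1ΔHep 1 the estimates were -0.88 for Insig2 and 1.47 for Plod2.

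Secreted and vascular targets had 6 of 11 above 0 and a median of 0.05. The target lists do not record whether HIF raises or lowers a gene. Hamp, the iron hormone hepcidin, was at 1373, 609 and 975 FPKM in flox and 4160, 631 and 1837 FPKM in NcoR1ΔHep (log2 fold change 1.19, SE 0.58, adjusted p = 0.931), highest in NcoR1ΔHep 1. Without that library its log2 fold change was 0.49.

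The receptors for VEGF and angiopoietin, with the ligand Angpt1, had 7 of 8 below 0 and a median of -0.63, which was -0.09 without flox 1. Kdr, the main signalling receptor for Vegfa, was at 8.67, 2.84 and 3.41 FPKM in flox and 3.07, 2.15 and 1.91 FPKM in NcoR1ΔHep (log2 fold change -1.01, SE 0.37, unadjusted p = 0.0260, adjusted p = 0.931 by edgeR). Flt4 was at 6.42, 1.51 and 2.39 FPKM in flox and 3.16, 1.65 and 0.977 FPKM in NcoR1ΔHep (-0.79, SE 0.52, adjusted p = 0.931). Without flox 1 the estimates were -0.45 for Kdr and -0.10 for Flt4, and without NcoR1ΔHep 1 they were -1.16 and -1.26. Flt4 was at -0.52 without NcoR1ΔHep 3. Most of these receptors are endothelial, and 15 of the 16 endothelial markers, Kdr among them, were below 0 with a median of -0.63. Their summed level was highest in flox 1, where Kdr and Flt4 were highest, and its part in the receptor values was not tested. The ligand Vegfa and its receptor Kdr did not peak together, since Vegfa was highest in NcoR1ΔHep 1 and Kdr in flox 1.

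**Figure D4:**
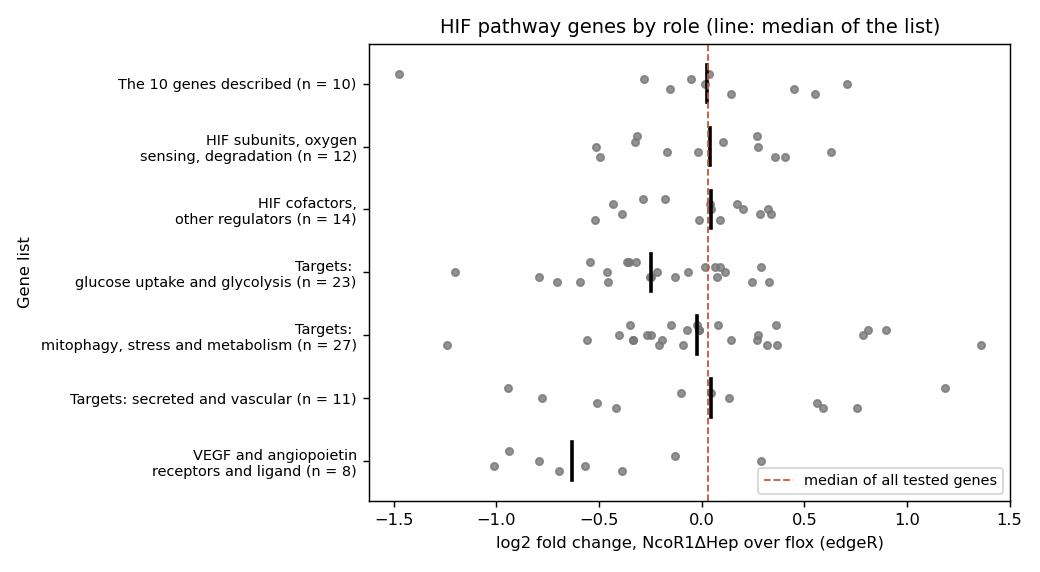
Log2 fold change of NcoR1ΔHep over flox by edgeR for each tested gene of the 10 described and of 6 further lists of the pathway, grouped by role, with the list median as a black line and the median of all tested genes (0.03) dashed. List medians lie between -0.25 and 0.05 apart from the receptor list at -0.63.

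Markers of other cells the samples could hold varied between libraries too. Kupffer cell and macrophage markers (11 of 11 tested) summed to 206 to 326 FPKM in flox and 135 to 343 FPKM in NcoR1ΔHep, and stellate cell markers (9 of 9 tested) to 125 to 145 and 144 to 240 FPKM. Red blood cell markers (6 of 7 tested) summed to 341 to 487 FPKM in flox and 292 to 312 FPKM in NcoR1ΔHep, without overlap. Of the 6 tested, 2 had a log2 fold change above 0 and 4 below. Gene by gene, 2 of the 6 showed no overlap (33.3%, against 7.56% of all tested genes). Cholangiocyte markers (4 of 6 tested) summed to 102 FPKM in NcoR1ΔHep 2 and to 22.1 to 36.2 FPKM in the other 5 libraries.

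Markers of pericentral hepatocytes, the zone of lower oxygen, had 7 of 8 above 0 and a median log2 fold change of 0.33. Their mean deviation on the log2 CPM scale was 0.42 in NcoR1ΔHep 1 and 0.35 in NcoR1ΔHep 3, the libraries highest for Bnip3, and -0.37 in NcoR1ΔHep 2. In flox it was -0.21, 0.03 and -0.22. Periportal markers had 2 of 7 above 0 and a median log2 fold change of -0.09. Their mean deviation was -0.17, 0.24 and 0.08 in flox and -0.26, -0.02 and 0.14 in NcoR1ΔHep. Lgr5, a receptor of pericentral cells picked with its values in view, had no overlap between the groups. Its range was 0.447 to 0.688 FPKM in flox and 1.26 to 1.48 FPKM in NcoR1ΔHep. Of the 8 markers it was the only 1 without overlap (12.5%, against 7.56% of all tested genes). It was called by DESeq2 (adjusted p = 0.0076) and not by edgeR (adjusted p = 0.931). The part of zonation in the Bnip3 values was not tested.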

How the data were processed

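The authors deposited 2 tables with 1 column per library: whole-number read counts per gene symbol, not normalized, and FPKM. For 12656 genes (a minimum of 20 counts in at least 2 libraries), dividing deposited counts by FPKM gave 1 whole gene length (tolerance 0.01) across libraries in 100% of cases, so the authors' FPKM is the count scaled by gene length and total counts. The submitters' processing notes name GRCm38, mm10 and hg38 without a role. Aligner, counter and strandedness were not given in the sources used here.

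Genes were kept by filterByExpr (minimum count 10, minimum total 15), leaving 13205 with 99.95% of the counts. All 10 described genes passed. Groups were compared by edgeR 4.0.16 (R 4.3.3), quasi-likelihood, TMM factors, two-sided, Benjamini-Hochberg threshold 0.05, without a replicate term. The fits were tested on simulated data. Alternatives were DESeq2 1.42.0, limma 3.58.1 on log2(FPKM + 1) and other scalings and filters. Standard errors come from the F statistic. Log2 CPM means log2 of TMM-scaled CPM plus 1, and "overlap" was judged in FPKM.

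The members and lists were chosen with earlier results of these data known. Named genes were all 10 members, from each further list the 2 with the smallest p and those with an unadjusted p under 0.05, and for Hif1a, Epas1 and Ndrg1 the 3 genes with the highest Pearson r. Egln2, Bnip3l, Vhl, Ldha, Saa1, Dbp, Arntl, Cdkn1a, Hspa9 and Lgr5 were added after their values were seen. Promoter sequences are from RefSeq.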

Additional observations from a re-analysis of the deposited data

How the results depend on the processing

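No member was called under any alternative in which it was tested (15 for 9 of the genes and 12 for Ankrd37, which a minimum of 1 CPM or of 0.5 FPKM removed), and 0 genes in all were called except by DESeq2 (5). The median of the 10 members ran from -0.07 to 0.08 with 1 library left out and from -0.00 to 0.05 otherwise. Epas1, Ndrg1 and Bnip3 kept their direction throughout. The unadjusted p of Ndrg1 was not under 0.05 in any limma fit, without flox 1 or without NcoR1ΔHep 3. That of Pfkfb3 was under 0.05 by edgeR without flox 3. Egln1 was -0.0096 with total-count scaling and -0.0069, -0.0077 and -0.0069 by limma on log2(FPKM + 1), on log2(FPKM + 0.1) and without a filter. With 1 library left out it ran from -0.089 to 0.085. Pfkfb3 was 0.47 with the replicate block, 0.18, 0.42 and 0.18 in those limma fits, and -0.998 to 1.77 with 1 library left out. The signs of Hif1a (-0.37 to 0.39), Egln3 (-0.66 to 0.0196), Vegfa (-0.11 to 0.85), Ankrd37 (-0.29 to 1.25), Slc2a1 (-0.072 to 0.15), Ndrg2 (-0.043 to 0.14) and Ndrg3 (-0.35 to 0.028) turned with 1 library left out, as did the log2 ratio of Hif1a to Epas1 (-0.16 to 0.46).

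List medians with 1 library left out ran from -0.22 to 0.12 (subunits and sensors), -0.12 to 0.0505 (cofactors), -0.17 to 0.047 (mitophagy, stress and metabolism), -0.33 to 0.23 (secreted and vascular) and -0.93 to -0.094 (receptors). By limma on log2(FPKM + 1) and log2(FPKM + 0.1), subunits and sensors had -0.11 and -0.11. Without a filter, glycolysis targets had -0.065 by limma. The cause was not tested. Same-numbered libraries had deviations from the group means correlated at 0.02, -0.38 and -0.52. Such deviations cancel within a group, so these values cannot decide whether the numbers mark pairs, which the labels do not say. With the replicate block, 0 genes were called, 175 against 443 had an unadjusted p under 0.05, and the exact sign-flip p of the Hif1a to Epas1 ratio was 1.0 against 0.6 unpaired (log2 difference 0.20, which a balanced block cannot change). Ankrd37 and Plod2 rest on at most 72 and 55 counts per library.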
